A study of Mus musculus with 36 samples.

Results

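Day 3 was compared with day 1 in motor neurons made from mouse embryonic stem (ES) cells and kept in medium conditioned by non-transgenic (NTg) astrocytes. The comparison used the 6 libraries titled as non-transgenic at 3 days and the 6 titled as non-transgenic at 1 day, chosen by their titles alone. These are 12 of the 36 libraries of the series. The ES cells came from Hlxb9-GFP1Tmj transgenic mice and held a reporter, eGFP alone or together with CD2, driven by the promoter of HB9 (gene Mnx1), so the same promoter drove the reporter of every group. Cells were differentiated towards motor neurons, bound by an antibody against CD2 and kept back on a magnetic column before they were plated, and no library of the unsorted cells was analysed here. Both NTg groups received medium conditioned by non-transgenic astrocytes from the spinal cord or cortex of newborn pups (which of these for a given library is not stated), with glucose, antibiotics and the trophic factors GDNF, BDNF and CNTF added. The groups therefore differ only in the time in that medium, 1 day or 3 days, as far as the labels say. Further media, from astrocytes that overexpress G93A mutant SOD1 (mSOD1) or wild-type SOD1 (wtSOD1), were given for the same times with the same additions and are described below only to set the NTg time course beside theirs. Their libraries also entered the fit, so they share in its filter and in the spread behind each p-value of the NTg comparison.

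Spinal motor neurons are specified by a small set of homeodomain factors, among them HB9 and the LIM factors ISL1, ISL2 and LHX3, which switch on the genes for acetylcholine synthesis and release. Newly made motor neurons stop dividing, extend axons and depend on trophic factors such as GDNF, BDNF and CNTF. Cultures made from ES cells can also hold progenitors, interneurons, glia and mesenchymal cells, and these cells can divide while the neurons cannot.

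Levels are given as CPM, a gene's read count normalised to the depth of its library, after scaling of library sizes with trimmed means (TMM). Differences are log2 of day 3 over day 1, fitted with edgeR. A gene is said to have risen or fallen where edgeR's quasi-likelihood test gave an adjusted p below 0.05 (Benjamini-Hochberg over all genes tested). Reads assigned to genes summed to between 4386946 and 19659809 per library on day 1 and between 11550054 and 42201777 on day 3. The first principal component of the 12 libraries held 63% of the variance and separated the days without overlap (-47.8 to -32.8 on day 1, 28.6 to 48.1 on day 3). The library of day 1 replicate 6 stood apart. It had the lowest total of the 12, it sat at -56.2 on the second component (12.3% of the variance) where the other 11 lay between -2.36 and 15.4, and its correlation with the other day 1 libraries was 0.969 to 0.973, whereas those among the other 5 reached 0.991. Counts were therefore also made without it, and for the gene lists below its removal moved the number of members that rose or fell by at most 2. Where the labels number the libraries 1 to 6 as experiments, they do not say that these were separate differentiations, so p-values measure the spread between these libraries, which may in part be technical. Exons of Ina, Chrnb2, Irf9, Ddit3, Srebf1, Cebpd, Ptbp1, Syvn1, Homer3, Tfip11 and Ppp2r1b, named below, overlap those of a neighbouring gene in the GENCODE annotation, so their reads may be shared.

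Of 21761 genes listed, 15204 passed the filter on low counts and were tested. Between day 1 and day 3, 4681 genes rose (30.8% of those tested) and 4677 fell (30.8%), and 5846 did not pass the test. Changes of more than 2-fold were more numerous upwards: 1288 genes rose by more than 2-fold (8.47%) and 310 fell by more than 2-fold (2.04%). All 6 libraries of day 3 lay above all 6 of day 1 for 3020 genes (19.9%) and below all 6 for 2821 genes (18.6%). Without day 1 replicate 6, 15275 genes were tested, 4713 rose (30.9%) and 4652 fell (30.5%). Of the 9358 genes called with all 12 libraries, 9016 (96.3%) were called in the same direction without replicate 6, and none was called in the opposite direction. With about 3 in 10 genes called in each direction, a count for a gene group has to be read against 30.8%. The median log2 difference over all genes tested was 0.00.

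**Figure D1:**
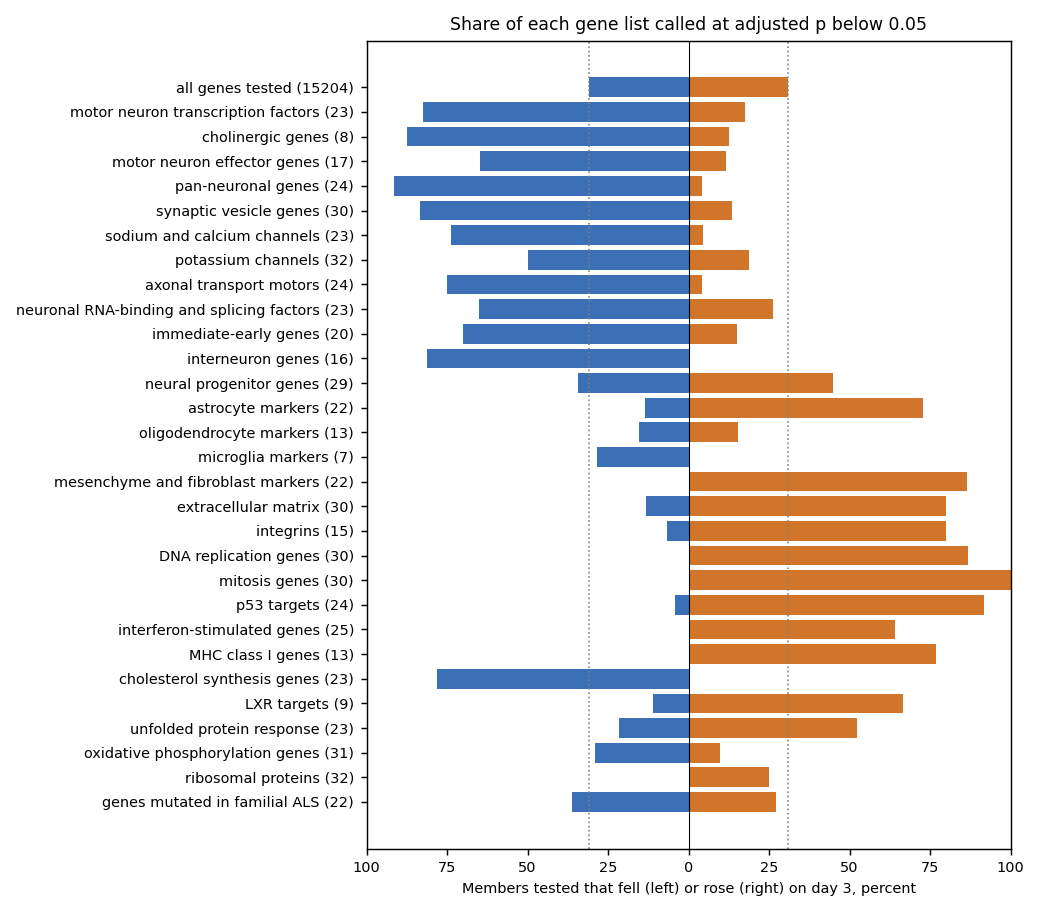
Share of the tested members of each gene list that fell (bars to the left) or rose (bars to the right) from day 1 to day 3, in percent, with the number of tested members in brackets. The dotted lines mark the shares over all genes tested, 30.8% in each direction. Neuronal lists extend to the left, and lists of division, matrix, mesenchyme and interferon genes to the right.

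The transcription factors that define motor neurons were lower on day 3. Of 24 listed factors 23 were tested: 4 rose, 19 fell and 0 did not pass the test, with a median log2 difference of -1.0. Mnx1, which encodes HB9 and whose promoter drives the reporter used for the sort, had lowest, median and highest levels of 87.9, 115 and 135 CPM on day 1 and 26.1, 33.1 and 49.5 CPM on day 3. The 2 groups did not overlap, and the gene fell (log2 difference -1.69, SE 0.13, edgeR adjusted p = 3.5e-13). Isl1, a LIM factor needed for motor neuron birth, stood at 136, 162 and 189.8 CPM on day 1 and 41.9, 60.4 and 65.8 CPM on day 3 (log2 difference -1.48, SE 0.10, edgeR adjusted p = 1.4e-14). Isl2, its relative in postmitotic motor neurons, showed the steepest fall of the list, at 11.8, 16.0 and 22.5 CPM on day 1 and 1.51, 2.92 and 4.12 CPM on day 3 (log2 difference -2.53, SE 0.20, edgeR adjusted p = 9.5e-14). For neither gene did a day 3 library reach the lowest library of day 1. Lhx3, the partner of ISL1 in the motor neuron complex, was low throughout, at 3.95, 6.62 and 8.01 CPM on day 1 and 1.11, 2.02 and 2.41 CPM on day 3, and fell as well (log2 difference -1.61, SE 0.17, edgeR adjusted p = 2.0e-10). Leaving out day 1 replicate 6 left these 4 differences at -1.74, -1.46, -2.58 and -1.56.

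The 4 factors of the list that rose were Aldh1a2, Tbx20, Mecom and Bcl11b. Aldh1a2, a retinoic acid synthesising enzyme listed here because it marks limb motor neurons, went from 0.697 to 13.6 CPM on average, with day 1 libraries between 0.184 and 1.20 CPM and day 3 libraries between 6.53 and 18.1 CPM (log2 difference 4.06, SE 0.38, edgeR adjusted p = 2.7e-11). Aldh1a2 is also made by meninges and other mesenchyme, so it does not mark motor neurons alone. Tbx20, a T-box factor of hindbrain and visceral motor neurons, went from 5.28 to 14.4 CPM (log2 difference 1.47, SE 0.12, edgeR adjusted p = 2.7e-13). Mecom and Bcl11b went from 2.71 to 5.13 CPM and from 4.51 to 7.33 CPM. In bulk RNA, fewer cells of a type and less RNA per cell cannot be told apart, and this holds for every gene group described here.

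**Figure D2:**
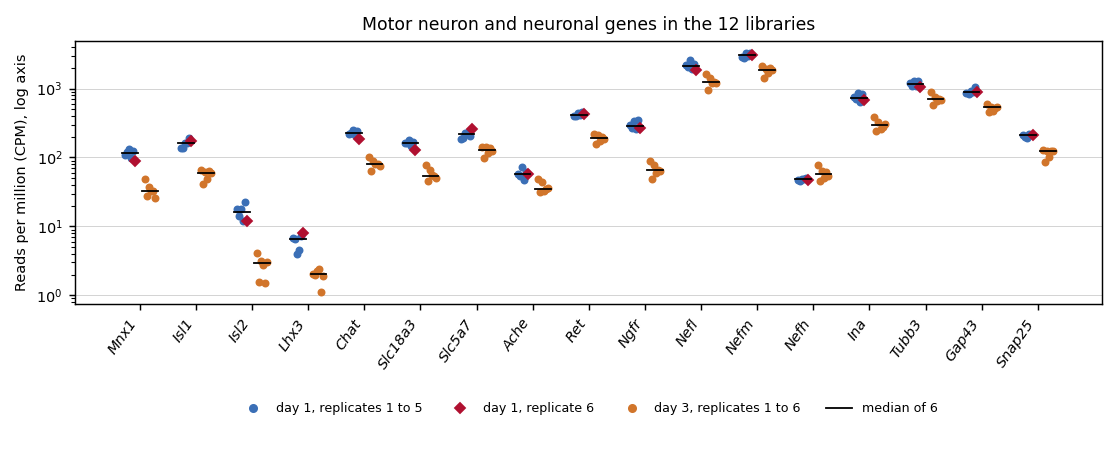
CPM (log axis) of 17 motor neuron and neuronal genes in each of the 12 NTg libraries, with day 1 in blue (replicate 6 as a red diamond), day 3 in orange and the median of 6 as a black line. Most of these genes lie lower on day 3 in every library, and Nefh does not.

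Genes of acetylcholine handling were lower on day 3. Of 8 tested, 1 rose, 7 fell and 0 did not pass the test (median log2 difference -0.79). Chat, the enzyme that makes acetylcholine, ranged from 182 to 247 CPM on day 1 (median 225) and from 63.4 to 102 CPM on day 3 (median 80.6), with no overlap between the days (log2 difference -1.45, SE 0.10, edgeR adjusted p = 3.8e-14). Slc18a3, the vesicular acetylcholine transporter, ranged from 126 to 179.8 CPM on day 1 (median 164) and from 45.0 to 77.4 CPM on day 3 (median 54.2) (log2 difference -1.45, SE 0.12, edgeR adjusted p = 2.2e-12). Slc5a7, which takes choline back into the terminal, fell less, with means of 218 ± 29.0 CPM on day 1 and 126 ± 17.9 CPM on day 3 (SD, n = 6, log2 difference -0.78, SE 0.11, edgeR adjusted p = 2.0e-07). Ache, which breaks acetylcholine down, ranged from 47.7 to 73.6 CPM on day 1 (median 57.8) and from 31.7 to 48.5 CPM on day 3 (median 35.3), and its groups overlapped although the gene passed the test (log2 difference -0.62, SE 0.12, edgeR adjusted p = 2.4e-05). Bche, the related esterase that glia and other non-neuronal cells also make, was the 1 member that rose, from 16.5 to 40.3 CPM (log2 difference 1.29, SE 0.11, edgeR adjusted p = 9.2e-13).

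Surface receptors and effectors of motor neurons moved less uniformly. Among 17 tested effector genes, 2 rose, 11 fell and 4 did not pass the test (median -0.33). Ngfr, the p75 neurotrophin receptor that developing motor neurons carry, had the steepest fall of the list, ranging from 257 to 349 CPM on day 1 (median 284) and from 48.3 to 87.8 CPM on day 3 (median 65.3) (log2 difference -2.13, SE 0.13, edgeR adjusted p = 1.3e-15). Ret, the signalling receptor for GDNF, went from 424 to 192 CPM (log2 difference -1.14, SE 0.08, edgeR adjusted p = 2.5e-15). Its co-receptor Gfra1 went the other way by a small amount, from 115 to 139 CPM, with overlapping groups (log2 difference 0.27, SE 0.09, edgeR adjusted p = 0.013). Chodl, a lectin of fast motor neurons, went from 10.3 to 11.9 CPM (log2 difference 0.24, SE 0.09, edgeR adjusted p = 0.025).

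Trophic factors and receptors as a wider list also moved in both directions. Among 27 tested trophic factors and receptors, 15 rose, 7 fell and 5 did not pass the test. Cntfr, the binding subunit for CNTF, ranged from 67.4 to 97.8 CPM on day 1 (median 89.3) and from 68.5 to 74.0 CPM on day 3 (median 71.8) (log2 difference -0.29, SE 0.06, edgeR adjusted p = 5.6e-05), whereas Lifr, a signalling subunit it shares with LIF, ranged from 196 to 300.1 CPM on day 1 (median 252) and from 277 to 341 CPM on day 3 (median 313) (log2 difference 0.33, SE 0.07, edgeR adjusted p = 2.1e-04). The groups overlapped for both. Igf1, a growth factor that glia and mesenchyme secrete, went from 2.17 to 13.3 CPM (log2 difference 2.59, SE 0.26, edgeR adjusted p = 1.2e-10), and Egfr, the receptor for epidermal growth factor that progenitors and astrocytes carry, from 18.2 to 66.9 CPM (log2 difference 1.87, SE 0.08, edgeR adjusted p = 6.9e-21). Socs3, the feedback inhibitor that CNTF signalling induces, fell slightly from a high level, 199 to 156 CPM (log2 difference -0.36, SE 0.07, edgeR adjusted p = 3.6e-05). Of the 21 tested genes of the gp130 and STAT3 pathway, through which CNTF acts, 8 rose, 10 fell and 3 did not pass the test. Junb and Socs1 had its largest falls (log2 differences -1.53 and -1.38). Il6ra and Cebpd rose (1.5 and 1.17), as did the scarce Gfap described below.

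The cytoskeleton of the axon followed the same downward course with 1 exception. All 5 listed neuronal intermediate filament genes were tested, and 4 fell. Nefm, the medium neurofilament subunit, was the most abundant, with lowest, median and highest levels of 2815, 3049 and 3316 CPM on day 1 and 1428, 1884 and 2152 CPM on day 3 (log2 difference -0.73, SE 0.09, edgeR adjusted p = 1.9e-08). Nefl, the light subunit, stood at 1837, 2121 and 2579 CPM on day 1 and 966, 1232 and 1654 CPM on day 3 (log2 difference -0.74, SE 0.11, edgeR adjusted p = 1.0e-06). An annotated transcript of Nefm overlaps exons of Nefl on the opposite strand, and whether counting used strand is not stated, so reads of these 2 genes may be shared. Peripherin (Prph) went from 724 to 466 CPM and alpha-internexin (Ina) from 745 to 300.4 CPM (log2 differences -0.64 and -1.31). Nefh, the heavy subunit that accumulates as axons mature, rose slightly, and its groups overlapped at 45.3, 48.0 and 49.9 CPM on day 1 and 46.2, 58.0 and 77.9 CPM on day 3 (log2 difference 0.31, SE 0.12, edgeR adjusted p = 0.028).

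Genes shared by all neurons fell with few exceptions. Of 24 tested pan-neuronal genes, 1 rose, 22 fell and 1 did not pass the test (median -0.77). For 21 of the 24 all 6 day 3 libraries lay below all 6 of day 1, against 18.6% of all genes tested. Tubb3, the neuronal tubulin, ranged from 1060.2 to 1292 CPM on day 1 (median 1151) and from 584 to 896 CPM on day 3 (median 695) (log2 difference -0.71, SE 0.10, edgeR adjusted p = 1.3e-07). Elavl3 and Elavl4, neuronal RNA-binding proteins, went from 403 to 193 CPM and from 364 to 184 CPM (log2 differences -1.06 and -0.98). Rbfox3, which encodes NeuN, went from 58.9 to 29.4 CPM (-1.0), and Mapt, which encodes tau, from 1390.5 to 888 CPM (-0.65). The member that rose was Thy1, a surface protein of mature neurons and of fibroblasts, from 1.27 to 2.93 CPM (log2 difference 1.42, edgeR adjusted p = 8.0e-05).

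The same held for synapses, excitability and transport. Of 30 synaptic vesicle genes, 4 rose, 25 fell and 1 did not pass the test (median -0.52). Snap25, a fusion protein of the terminal, ranged from 194 to 217 CPM on day 1 (median 212) and from 87.2 to 127 CPM on day 3 (median 124) (log2 difference -0.85, SE 0.09, edgeR adjusted p = 1.7e-10), and the vesicle protein Syp from 185 to 221 CPM on day 1 (median 201) and from 136 to 189.8 CPM on day 3 (median 156) (log2 difference -0.36, SE 0.08, edgeR adjusted p = 2.9e-04). Unc13a, a priming factor whose exons overlap those of the neighbouring Glt25d1 on the other strand, and the active-zone scaffold Bsn had the largest falls of the list (-0.97 and -0.86). The list's largest rises were in Sv2b and Syn3, with 6.74 to 19.2 CPM and 126 to 222 CPM (1.54 and 0.82). Among 23 sodium and calcium channel genes 1 rose, 17 fell and 5 did not pass the test, and among 32 potassium channel genes 6 rose, 16 fell and 10 did not pass the test. Scn9a, a sodium channel, went from 125 to 69.1 CPM and the calcium channel subunit Cacnb1 from 106 to 53.7 CPM. The potassium channel with the largest rise was Kcnj10, the glial Kir4.1, at 0.511, 1.03 and 4.48 CPM on day 1 and 2.78, 3.16 and 6.59 CPM on day 3 (log2 difference 1.63, SE 0.40, edgeR adjusted p = 6.4e-04), and day 1 replicate 6 was its highest day 1 library at 4.48 CPM.

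Of 24 axonal transport motor genes, 1 rose, 18 fell and 5 did not pass the test. Kif5a, the neuronal kinesin heavy chain, went from 683 to 407 CPM (log2 difference -0.75, SE 0.09, edgeR adjusted p = 1.6e-09), while Kif5b, its ubiquitous relative, was the 1 member that rose, from 216 to 289.5 CPM (log2 difference 0.42, SE 0.04, edgeR adjusted p = 3.8e-11). Neuronal RNA-binding and splicing factors split in the same way: 6 of 23 tested rose, 15 fell and 2 did not pass the test. Celf3 and Khdrbs2, restricted largely to neurons, had the largest falls (-1.18 and -1.15). Ptbp1, the splicing repressor of progenitors and non-neuronal cells, went from 119 to 188 CPM (log2 difference 0.66, SE 0.08, edgeR adjusted p = 4.3e-09), and Mbnl2 from 100.02 to 175 CPM.

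Among receptors for transmitters the balance was less one-sided. Glutamate receptor genes counted 3 rises and 13 falls among 22 tested. With scaling by library totals 5 rose and 10 fell. Gria1, an AMPA receptor subunit, went up from 30.7 to 65.8 CPM (log2 difference 1.11, SE 0.09, edgeR adjusted p = 8.9e-14) while the kainate receptor subunit Grik2 went down from 77.1 to 38.8 CPM (log2 difference -0.98, SE 0.12, edgeR adjusted p = 2.0e-08). Of 22 receptor genes for GABA, glycine and acetylcholine, 7 rose, 9 fell and 6 did not pass the test. Over all genes tested 30.8% passed in each direction. Gabra2 went up from 21.4 to 45.7 CPM and Glra3 from 3.07 to 5.62 CPM, and the nicotinic subunits Chrnb2 and Chrna5 went down from 142 to 82.1 CPM and 11.6 to 5.07 CPM. 

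Genes that mark the passage from young to mature neurons fell more often than they rose. Of 24 tested, 3 rose, 18 fell and 3 did not pass the test. This count does not separate genes of young neurons from those of mature ones. Dcx, a microtubule protein of migrating young neurons, ranged from 1336 to 1599.5 CPM on day 1 (median 1409) and from 673 to 846 CPM on day 3 (median 715) (log2 difference -0.96, SE 0.07, edgeR adjusted p = 1.0e-14), and Sox11, a factor of newborn neurons, from 865 to 1072 CPM on day 1 (median 1014) and from 487 to 572 CPM on day 3 (median 516) (log2 difference -0.94, SE 0.05, edgeR adjusted p = 2.1e-18). Gap43, the growth cone protein, ranged from 823 to 1050.3 CPM on day 1 (median 894) and from 461 to 606 CPM on day 3 (median 536) (log2 difference -0.78, SE 0.07, edgeR adjusted p = 6.2e-13). Among axon guidance genes, 9 of 38 tested rose, 22 fell and 7 did not pass the test. The semaphorin receptors Nrp2 and Plxna4 fell from 237 to 88.3 CPM and from 164 to 62.9 CPM. The semaphorins Sema3d and Sema3a rose from 36.5 to 100.01 CPM and from 52.9 to 124 CPM.

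Activity-dependent genes were lower on day 3. Of 20 tested immediate-early genes, which neurons and other cells switch on within minutes of stimulation, 3 rose, 14 fell and 3 did not pass the test (median -0.52). Fos ranged from 44.0 to 60.6 CPM on day 1 (median 51.1) and from 22.4 to 25.9 CPM on day 3 (median 22.98) (log2 difference -1.11, SE 0.10, edgeR adjusted p = 1.2e-11). Npas4, which answers to calcium entry in neurons, went from 11.1 to 3.64 CPM (log2 difference -1.58, SE 0.18, edgeR adjusted p = 1.9e-09). Bdnf, itself an activity-dependent gene and one of the added factors as protein, rose from 8.42 to 15.2 CPM (log2 difference 0.84, SE 0.11, edgeR adjusted p = 1.5e-08). Atf3, a factor of injured neurons, had 16.6, 17.8 and 28.5 CPM on day 1 and 15.3, 17.5 and 20.8 CPM on day 3, with its highest level in day 1 replicate 6, and did not pass the test (log2 difference -0.11, SE 0.11, edgeR adjusted p = 0.42). Among axon injury and growth genes 6 of 23 tested rose, 13 fell and 4 did not pass the test. Reg3b, a secreted protein that injured motor neurons make, rose from 4.80 to 30.9 CPM (log2 difference 2.76, SE 0.18, edgeR adjusted p = 1.3e-15), and Ecel1, another injury-related gene that motor neurons express in development, fell from 284 to 114 CPM (log2 difference -1.32, SE 0.10, edgeR adjusted p = 2.8e-13).

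Interneuron markers fell where they changed. Of 24 listed, 16 were tested, and 0 rose, 13 fell and 3 did not pass the test. En1, a marker of ventral inhibitory interneurons, went from 8.40 to 2.49 CPM (log2 difference -1.72, SE 0.17, edgeR adjusted p = 2.0e-11), Lhx5 from 4.67 to 1.55 CPM, and the glycine transporter Slc6a5 from 11.2 to 4.39 CPM. Progenitor genes were divided: 13 of 29 tested rose, 10 fell and 6 did not pass the test. Sox2, the factor of dividing neural progenitors and of glia, ranged from 46.1 to 68.4 CPM on day 1 (median 55.5) and from 100.4 to 154 CPM on day 3 (median 122) without overlap (log2 difference 1.15, SE 0.11, edgeR adjusted p = 2.0e-11). Gli3 went from 17.8 to 59.0 CPM. Olig2, the factor of the progenitor domain that gives rise to motor neurons and later oligodendrocytes, had 6.08, 8.22 and 9.68 CPM on day 1 and 3.66, 7.69 and 13.0 CPM on day 3, with overlapping groups and no call (log2 difference -0.02, SE 0.27, edgeR adjusted p = 0.96). Neurog2, a proneural factor that acts just before cell cycle exit, fell from 4.93 to 1.85 CPM (log2 difference -1.39, SE 0.20, edgeR adjusted p = 1.2e-07), and the Notch target Hes5 from 3.64 to 1.68 CPM. Among Hox genes, which set position along the cord, 4 of 19 tested rose, 7 fell and 8 did not pass the test. Hoxd3 and Hoxa5 had the largest falls (-0.90 and -0.76), and Hoxb6 and Hoxb3 the largest rises (0.88 and 0.72).

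Genes of cell division rose as a body. All 30 mitosis genes listed were tested and 30 rose, with a median log2 difference of 0.98. Rises of more than 2-fold were seen for 14 of the 30, against 8.47% of all genes tested. For 29 of the 30 every library of day 3 lay above every library of day 1, against 19.9% of all genes tested. Mki67, the proliferation marker Ki-67, stood at 108, 130.1 and 152 CPM on day 1 and 226, 273 and 342 CPM on day 3 (log2 difference 1.11, SE 0.11, edgeR adjusted p = 1.5e-10). Top2a, the topoisomerase of dividing cells and the most abundant of the list's named genes, stood at 208, 239.8 and 266 CPM on day 1 and 376, 458 and 566 CPM on day 3 (log2 difference 0.96, SE 0.11, edgeR adjusted p = 1.4e-09). Cenpe, a kinesin of the kinetochore, had the largest difference, from 42.8 to 104 CPM (log2 difference 1.26, SE 0.10, edgeR adjusted p = 4.2e-13). Cdk1, the kinase that drives entry into mitosis, went from 36.1 to 83.7 CPM (log2 difference 1.21, SE 0.09, edgeR adjusted p = 6.8e-14), the kinetochore protein Cenpf from 66.5 to 153 CPM (log2 difference 1.21, SE 0.11, edgeR adjusted p = 1.1e-11), and Ccnb1, the cyclin partner of CDK1, from 30.9 to 62.2 CPM (log2 difference 1.0, SE 0.12, edgeR adjusted p = 9.9e-09). Of 30 DNA replication genes 26 rose, 0 fell and 4 did not pass the test, with a smaller median of 0.55. Mcm2, part of the replicative helicase, ranged from 53.5 to 65.9 CPM on day 1 (median 58.5) and from 75.1 to 94.5 CPM on day 3 (median 84.7) (log2 difference 0.53, SE 0.08, edgeR adjusted p = 1.2e-07), and none of the replication genes rose by more than 2-fold.

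The promoters of 4 of these genes are shown because promoters of many mitosis genes are known to carry a pair of short elements. These are the cell cycle homology region, searched here as the letters TTTGAA, and the CCAAT box, searched as CCAAT, each on both strands. Windows run from 250 bases before to 50 bases after the annotated start, come from RefSeq on build GRCm38.p6, and are written 5′ to 3′ on the gene's strand with matches in capitals (a match on the other strand reads TTCAAA or ATTGG). The windows are Cdk1 (chr10:69352863-69353162, minus strand), Cenpf (chr1:189688037-189688336, minus strand), Top2a (chr11:99024140-99024439, minus strand) and Mki67 (chr7:135716330-135716629, minus strand).
Cdk1: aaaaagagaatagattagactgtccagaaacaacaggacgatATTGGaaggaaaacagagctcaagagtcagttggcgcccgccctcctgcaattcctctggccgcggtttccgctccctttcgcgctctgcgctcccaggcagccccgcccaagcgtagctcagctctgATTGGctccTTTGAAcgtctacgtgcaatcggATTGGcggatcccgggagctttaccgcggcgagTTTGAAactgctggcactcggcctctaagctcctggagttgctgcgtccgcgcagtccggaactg
Cenpf: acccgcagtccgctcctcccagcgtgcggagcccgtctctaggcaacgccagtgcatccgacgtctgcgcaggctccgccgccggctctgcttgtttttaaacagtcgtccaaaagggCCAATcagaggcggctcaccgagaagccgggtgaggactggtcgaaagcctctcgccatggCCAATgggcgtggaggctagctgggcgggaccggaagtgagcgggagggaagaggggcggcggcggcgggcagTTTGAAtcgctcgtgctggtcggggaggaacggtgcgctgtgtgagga
Top2a: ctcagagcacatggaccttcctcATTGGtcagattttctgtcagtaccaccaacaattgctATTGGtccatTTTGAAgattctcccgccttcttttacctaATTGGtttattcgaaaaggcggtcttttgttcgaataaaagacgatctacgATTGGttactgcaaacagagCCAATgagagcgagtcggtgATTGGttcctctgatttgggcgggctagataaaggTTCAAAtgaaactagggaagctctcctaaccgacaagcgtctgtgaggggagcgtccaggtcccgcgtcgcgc
Mki67: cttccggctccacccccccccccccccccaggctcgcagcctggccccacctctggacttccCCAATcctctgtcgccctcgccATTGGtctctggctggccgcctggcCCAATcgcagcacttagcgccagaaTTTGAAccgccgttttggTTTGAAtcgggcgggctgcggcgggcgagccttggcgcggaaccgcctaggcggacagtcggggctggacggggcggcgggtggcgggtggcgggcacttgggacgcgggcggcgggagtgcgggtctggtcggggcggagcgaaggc
Of the 25 mitosis genes with a window, 18 held TTTGAA and 20 held CCAAT, and 17 held both. Over all 32851 windows of the RefSeq table the shares were 17.9%, 37.4% and 6.95%. Of the 24 replication genes with a window, 3 held TTTGAA and 15 held CCAAT. These are matches of letters and not sites shown to be bound.

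Genes of G1 and of cell cycle exit rose too. Of 16 such genes, 12 rose, 3 fell and 1 did not pass the test. Ccnd2, a G1 cyclin of dividing progenitors, went from 171 to 924 CPM (log2 difference 2.43, SE 0.08, edgeR adjusted p = 2.2e-23) and Ccnd1 from 38.7 to 153 CPM (log2 difference 1.98, SE 0.10, edgeR adjusted p = 1.1e-18). The exons of Ccnd1 overlap a gene on the opposite strand. Cdkn1c, the inhibitor p57 of newly postmitotic neurons, went the other way, from 36.6 to 18.6 CPM (log2 difference -1.0, SE 0.14, edgeR adjusted p = 7.8e-08). Cdkn1a, the inhibitor p21 that p53 induces, ranged from 69.7 to 91.5 CPM on day 1 (median 83.8) and from 167 to 207 CPM on day 3 (median 196) (log2 difference 1.23, SE 0.07, edgeR adjusted p = 1.7e-18). Targets of p53 rose broadly: 22 of 24 tested rose, 1 fell and 1 did not pass the test, median 0.81. Fas, a death receptor, went from 9.69 to 42.5 CPM (log2 difference 2.14, SE 0.13, edgeR adjusted p = 3.8e-17), and Perp, a membrane protein of p53-dependent death, from 12.8 to 51.1 CPM (log2 difference 1.97, SE 0.10, edgeR adjusted p = 6.1e-20). Plk2 was the member that fell, from 149.7 to 129 CPM. Among apoptosis regulators 15 of 27 tested rose, 9 fell and 3 did not pass the test. Casp8, the caspase that acts below death receptors, went from 1.31 to 4.71 CPM, and Mlkl, the executor of necroptosis, from 1.46 to 4.51 CPM. Bmf and Hrk, activators of death that neurons express, fell from 8.95 to 4.13 CPM and 18.9 to 11.4 CPM.

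Markers of other cells changed with the neuronal genes, and their part in the neuronal changes was not tested. Of 22 tested astrocyte markers 16 rose, 3 fell and 3 did not pass the test. Of these 22 markers 13 rose by more than 2-fold, against 8.47% of all genes tested. Their summed level lay between 934 and 1159.7 CPM on day 1 and between 2337 and 2482 CPM on day 3, without overlap. Aldh1l1, a folate enzyme used as a marker of astrocytes and radial glia, stood at 12.4, 12.6 and 18.1 CPM on day 1 and 111, 127 and 176 CPM on day 3, with no overlap (log2 difference 3.24, SE 0.14, edgeR adjusted p = 6.4e-20). Aldoc, the brain aldolase of astrocytes, stood at 8.89, 10.0 and 16.3 CPM on day 1 and 47.4, 49.3 and 65.4 CPM on day 3 (log2 difference 2.34, SE 0.15, edgeR adjusted p = 2.9e-15). Markers of mature astrocytes were scarce or lower. Gfap was listed at 0 reads in 4 of the 6 day 1 libraries and reached at most 3.47 CPM on day 3. It had 0, 0, 0, 1, 0 and 5 reads in day 1 replicates 1 to 6 and 51, 58, 3, 7, 5 and 4 in those of day 3, and replicates 1 and 2 of day 3 held most of its reads. The water channel Aqp4 stood at 0.172, 0.635 and 1.41 CPM on day 1 and 1.73, 2.73 and 3.33 CPM on day 3 (log2 difference 1.91, SE 0.30, edgeR adjusted p = 1.0e-06). Slc1a2, the main glutamate transporter of mature astrocytes, fell from 69.6 to 35.0 CPM (log2 difference -0.96, SE 0.09, edgeR adjusted p = 2.1e-12).

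Mesenchymal and fibroblast markers rose widely. Of 22 tested, 19 rose, 0 fell and 3 did not pass the test, with a median log2 difference of 1.46 and a summed level of 1322 to 1861 CPM on day 1 against 3654 to 4749.8 CPM on day 3. Lox, the enzyme that crosslinks collagen, stood at 2.33, 4.18 and 4.65 CPM on day 1 and 27.4, 33.8 and 37.2 CPM on day 3 (log2 difference 3.10, SE 0.16, edgeR adjusted p = 4.7e-19). Prrx1, a factor of limb and skeletal mesenchyme, went from 2.80 to 26.2 CPM (log2 difference 3.20, SE 0.21, edgeR adjusted p = 1.1e-15), and Dcn, a small proteoglycan of fibroblasts, from 4.28 to 21.0 CPM (log2 difference 2.38, SE 0.24, edgeR adjusted p = 1.6e-10). Acta2, smooth muscle actin and the most abundant of these, ranged from 368 to 544 CPM on day 1 (median 437) and from 1031 to 1451 CPM on day 3 (median 1244) (log2 difference 1.47, SE 0.12, edgeR adjusted p = 1.4e-12). Col1a1, a chain of type I collagen, ranged from 33.4 to 73.7 CPM on day 1 (median 42.5) and from 74.9 to 112 CPM on day 3 (median 98.9) (log2 difference 0.97, SE 0.18, edgeR adjusted p = 1.9e-05).

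Extracellular matrix genes rose as well. Of 30 extracellular matrix genes 24 rose, 4 fell and 2 did not pass the test (median 1.42). Lama5 and Lama2, laminin chains, went from 8.77 to 70.2 CPM and from 5.98 to 42.7 CPM (2.94 and 2.91). The falls included Tnr and Vcan, matrix proteins of the nervous system, from 66.4 to 33.4 CPM and from 193 to 119 CPM. Of 15 integrins, the receptors for matrix, 12 rose, led by Itgav from 83.9 to 241 CPM (log2 difference 1.52, SE 0.11, edgeR adjusted p = 9.0e-14). The single integrin that fell, Itga9, was called only with replicate 6 (edgeR adjusted p = 0.044 with it and 0.13 without). Among ligands and targets of TGF-beta and BMP 11 of 29 tested rose, 8 fell and 10 did not pass the test, with Bmp4 up from 3.37 to 17.3 CPM and its target Id2 down from 48.4 to 20.6 CPM. Among Notch genes 8 of 19 tested rose, 6 fell and 5 did not pass the test, and Notch2 went from 67.4 to 142 CPM. Among hedgehog and Wnt genes 7 of 15 tested rose, 3 fell and 5 did not pass the test, and Wnt5a went from 26.3 to 104 CPM.

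Oligodendrocyte and microglia markers gave few calls. Of 18 oligodendrocyte markers 13 were tested: 2 rose, 2 fell and 9 did not pass the test (median -0.08). Without day 1 replicate 6, 4 rose and 1 fell (median 0.19). Their summed level was 101.45 to 105 CPM in 5 day 1 libraries, 319 CPM in replicate 6 and 94.4 to 118 CPM on day 3. Mbp, of the myelin sheath, fell from 37.0 to 22.9 CPM (log2 difference -0.65, SE 0.09, edgeR adjusted p = 5.7e-08). Of 20 microglia markers only 7 passed the filter, Trem2 had no read in any of the 12 libraries, and Csf1r and Ctss fell (log2 differences -3.08 and -0.89, and -1.81 and -0.40 without replicate 6). With DESeq2 4 members of this list fell. The list's sum was 45.6 to 49.2 CPM in 5 day 1 libraries, 157 CPM in replicate 6 and 48.7 to 53.3 CPM on day 3. Aif1, a defining microglial gene, had at most 11 reads in a library and was not tested. Pluripotency genes remained rare: 2 of 12 tested rose, 6 fell and 4 did not pass the test, with Lin28a down from 24.9 to 10.1 CPM (log2 difference -1.31, SE 0.13, edgeR adjusted p = 2.1e-11). Pou5f1, the OCT4 gene of ES cells, had 422 reads in day 3 replicate 1 (9.78 CPM) and at most 25 in each other NTg library, and did not pass the test (log2 difference 3.04, SE 1.47, edgeR adjusted p = 0.073).

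Further lists of other cells and signals gave smaller or divided counts. Among neuropeptides and their processing enzymes 3 of 24 tested rose, 13 fell and 8 did not pass the test. Cartpt, a peptide of many neurons, and Pcsk2, a prohormone convertase, fell (log2 differences -1.37 and -1.24), and Nppc, a natriuretic peptide, rose from 2.46 to 11.3 CPM. Among neural crest and Schwann markers 6 of 17 tested rose, 6 fell and 5 did not pass the test, and the falls included Ngfr and Gap43, which motor neurons also express. Among endothelial and mural markers 3 of 11 tested rose, 3 fell and 5 did not pass the test, and without day 1 replicate 6, 3 rose and 1 fell. Eng and Notch3, receptors of vascular cells, rose from 2.85 to 8.65 CPM and from 63.3 to 125 CPM, and the falls of Flt1, a VEGF receptor, and of Pecam1, an adhesion molecule of endothelium, were called only with that library (edgeR adjusted p = 0.028 and 0.03 with it, 0.052 and 0.11 without). Among muscle and cardiac markers 0 of 10 tested rose, 4 fell and 6 did not pass the test, with the cardiac actin Actc1 down from 10.2 to 4.10 CPM. Among epithelial and endoderm markers 3 of 13 tested rose, 3 fell and 7 did not pass the test, and with DESeq2 5 fell. Krt19, a keratin, fell from 6.35 to 2.01 CPM, and Shh and Foxa2, which the floor plate of the cord also expresses, rose (log2 differences 1.64 and 1.69). Among ependymal and choroid markers 3 of 7 tested rose, 2 fell and 2 did not pass the test, and Enkur, a protein of cilia, rose from 0.527 to 3.18 CPM. Among genes of feedback on MAPK signalling 6 of 12 tested rose, 4 fell and 2 did not pass the test. Dusp4, a phosphatase of this pathway, fell from 248 to 86.6 CPM (log2 difference -1.51, SE 0.09, edgeR adjusted p = 4.8e-16), and Spry1, an inhibitor of receptor signalling, rose from 6.86 to 14.4 CPM.

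**Figure D3:**
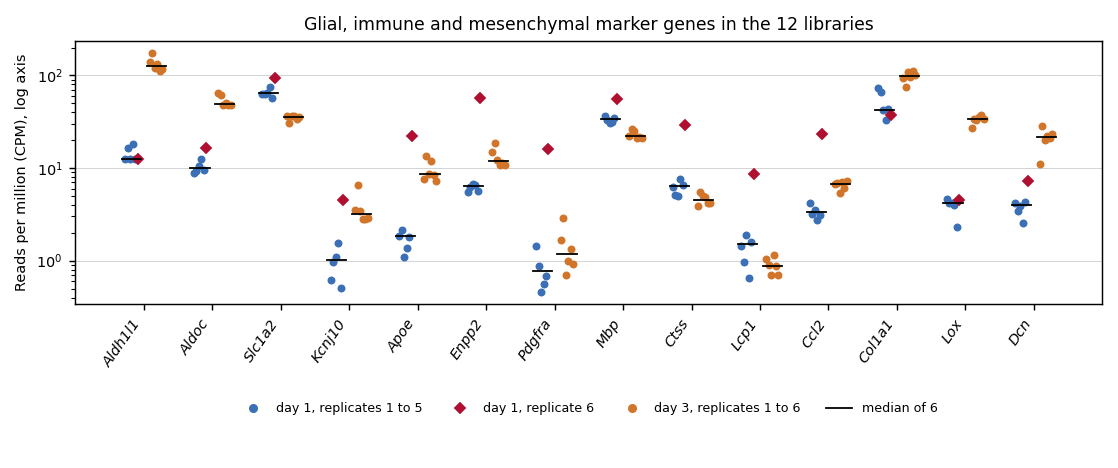
CPM (log axis) of 14 glial, immune and mesenchymal marker genes in each of the 12 NTg libraries, drawn as in the plot of neuronal genes. The red diamond of day 1 replicate 6 lies far above the other day 1 libraries for Apoe, Enpp2, Pdgfra, Ctss, Lcp1 and Ccl2, and within their range for Aldh1l1 and Lox.

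Retinoic acid genes did not move as a group. Of 17 tested 6 rose, 7 fell and 4 did not pass the test, against 30.8% of all genes tested in each direction. The list's median log2 difference was 0.06. Beside Aldh1a2, the retinaldehyde reductase Dhrs3 rose from 0.517 to 7.22 CPM (log2 difference 3.93, SE 0.38, edgeR adjusted p = 2.1e-11). Rxrg, a retinoid X receptor of motor neurons, fell from 7.16 to 2.01 CPM (log2 difference -1.81, SE 0.18, edgeR adjusted p = 5.1e-11), and Stra6, a retinol importer, from 22.4 to 9.64 CPM (log2 difference -1.25, SE 0.11, edgeR adjusted p = 2.9e-12).

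Interferon-stimulated genes rose where they changed. Of 25 tested, 16 rose, 0 fell and 9 did not pass the test. All 16 rose by more than 2-fold, which 8.47% of all genes tested did. Without day 1 replicate 6, 18 rose. These genes include sensors and effectors against viruses. Ifitm3, a membrane protein that blocks virus entry, stood at 13.1, 16.4 and 18.4 CPM on day 1 and 79.5, 92.8 and 103 CPM on day 3 (log2 difference 2.53, SE 0.10, edgeR adjusted p = 1.1e-21). Ifih1, the RNA sensor MDA5, stood at 0.401, 1.87 and 2.59 CPM on day 1 and 8.06, 9.44 and 10.8 CPM on day 3 (log2 difference 2.53, SE 0.19, edgeR adjusted p = 3.0e-14). Ddx58, the RNA sensor RIG-I, stood at 6.00, 6.85 and 9.66 CPM on day 1 and 22.2, 26.4 and 27.9 CPM on day 3 (log2 difference 1.82, SE 0.11, edgeR adjusted p = 2.4e-17). For all 3 the days did not overlap. Parp14 went from 1.64 to 7.43 CPM and the factor Irf1 from 12.4 to 30.4 CPM. With DESeq2, 15 of the list were called as higher and 2 as lower. Irf9 and Usp18 did not pass edgeR's test, at 20.4 to 18.9 CPM and 3.70 to 3.35 CPM (log2 difference -0.09, SE 0.07, edgeR adjusted p = 0.3 and log2 difference 0.11, SE 0.23, edgeR adjusted p = 0.7).

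The promoters of the 3 named sensors and effectors are shown because many genes of this class carry an interferon-stimulated response element, searched here as GAAA, any 2 bases and GAAA, on both strands. Matches are in capitals, and the windows are Ifitm3 (chr7:141010695-141010994, minus strand), Ifih1 (chr2:62646206-62646505, minus strand) and Ddx58 (chr4:40239776-40240075, minus strand), from RefSeq on GRCm38.p6.
Ifitm3: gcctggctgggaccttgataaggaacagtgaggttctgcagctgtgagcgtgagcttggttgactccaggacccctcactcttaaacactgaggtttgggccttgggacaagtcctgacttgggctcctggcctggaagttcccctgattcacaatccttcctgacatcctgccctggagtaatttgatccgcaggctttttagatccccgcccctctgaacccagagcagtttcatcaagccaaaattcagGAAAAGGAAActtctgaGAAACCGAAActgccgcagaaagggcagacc
Ifih1: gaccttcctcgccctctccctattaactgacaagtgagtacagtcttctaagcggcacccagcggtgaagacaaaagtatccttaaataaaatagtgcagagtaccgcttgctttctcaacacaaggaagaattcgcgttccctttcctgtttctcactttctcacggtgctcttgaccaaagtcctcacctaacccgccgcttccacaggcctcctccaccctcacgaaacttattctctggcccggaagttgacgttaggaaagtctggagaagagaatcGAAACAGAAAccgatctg
Ddx58: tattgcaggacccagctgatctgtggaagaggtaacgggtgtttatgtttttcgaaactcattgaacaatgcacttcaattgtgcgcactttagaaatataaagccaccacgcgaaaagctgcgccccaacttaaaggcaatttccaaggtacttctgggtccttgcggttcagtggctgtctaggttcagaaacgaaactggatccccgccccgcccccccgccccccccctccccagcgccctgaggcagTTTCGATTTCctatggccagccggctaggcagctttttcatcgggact
Of the 16 interferon-stimulated genes that rose, 14 had a window and 11 of these held the element. Of the 9 that did not pass the test, 6 had a window and 2 held it. Over all 32851 windows the share was 3.44%. In these 3 genes the matches lie within the 50 bases after the annotated start.

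Antigen presentation and inflammatory genes moved partly with them. Of 13 genes of MHC class I and its peptide loading, 10 rose, 0 fell and 3 did not pass the test (median 1.20). Tap2, a peptide pump, went from 1.70 to 7.403 CPM and Psmb8, an immunoproteasome subunit, from 1.24 to 4.89 CPM. B2m, the light chain, stood at 17.2, 18.8 and 50.2 CPM on day 1 and 47.8, 55.3 and 57.1 CPM on day 3, and its groups overlapped through day 1 replicate 6 at 50.2 CPM (log2 difference 1.27, SE 0.15, edgeR adjusted p = 8.6e-09). Among NF-kB genes and chemokines 6 of 20 tested rose, 3 fell and 11 did not pass the test. Vcam1 and Icam1, adhesion molecules, rose from 33.7 to 86.5 CPM and from 1.77 to 7.62 CPM. Ccl2, a chemokine, ranged from 2.77 to 23.6 CPM on day 1 (median 3.33) and from 5.33 to 7.18 CPM on day 3 (median 6.76), with 23.6 CPM in replicate 6, and was called only without it (log2 difference 0.37, SE 0.35, edgeR adjusted p = 0.37 with it; log2 difference 0.96, SE 0.23, edgeR adjusted p = 4.3e-04 without). Cxcl10, an interferon-induced chemokine, was not called with replicate 6 (log2 difference -0.28, SE 0.45, edgeR adjusted p = 0.62) or without it (log2 difference 0.39, SE 0.35, edgeR adjusted p = 0.34). Among complement genes 4 of 12 tested rose, 4 fell and 4 did not pass the test, and Clu, a secreted chaperone that restrains complement, rose from 51.1 to 163 CPM.

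Cholesterol synthesis genes fell, and the exporters Abca1 and Abcg1 rose. Of 23 tested cholesterol synthesis genes 0 rose, 18 fell and 5 did not pass the test (median -0.38). Srebf2, the factor that drives this pathway, ranged from 325 to 390.3 CPM on day 1 (median 379.7) and from 198 to 236 CPM on day 3 (median 218) (log2 difference -0.74, SE 0.05, edgeR adjusted p = 2.3e-15). Fdft1, squalene synthase, whose exons overlap Ctsb on the other strand, went from 129 to 80.2 CPM, and Tm7sf2 from 57.8 to 33.9 CPM. Hmgcs1 was listed at 0 reads in every library and was not tested. A sterol regulatory element, searched as TCACNCCAC on both strands of the same kind of promoter window, was found in 0 of the 15 tested members with a window, against 1.24% of all windows, which says only that these letters are not in these windows. Of 9 tested targets of the liver X receptors, which sense sterols, 6 rose, 1 fell and 2 did not pass the test (median 1.25). The transporter gene Abca7 fell slightly (log2 difference -0.23), and its call was lost with scaling by library totals (-0.18). Abca1, the main cholesterol exporter, ranged from 88.1 to 143 CPM on day 1 (median 109) and from 241 to 306 CPM on day 3 (median 263) (log2 difference 1.26, SE 0.10, edgeR adjusted p = 1.0e-13), and Abcg1, another exporter, from 6.48 to 8.25 CPM on day 1 (median 7.23) and from 16.4 to 17.5 CPM on day 3 (median 17.2) (log2 difference 1.25, SE 0.10, edgeR adjusted p = 8.3e-14). Apoe, the lipid carrier, had 1.09, 1.83 and 22.2 CPM on day 1 and 7.25, 8.58 and 13.5 CPM on day 3, with replicate 6 the highest of day 1 at 22.2 CPM (log2 difference 1.51, SE 0.44, edgeR adjusted p = 0.0039 with it; log2 difference 2.51, SE 0.25, edgeR adjusted p = 1.0e-10 without). Its call with all libraries was lost with DESeq2 (log2 difference 1.0) and with the 12 NTg libraries fitted alone (1.56). Among fatty acid synthesis genes 8 of 18 tested rose, 5 fell and 5 did not pass the test. Srebf1 and Scd1 rose from 68.1 to 202 CPM and 66.9 to 194 CPM, while Acly, which also supplies acetyl-CoA for acetylcholine, fell from 1177 to 704 CPM (log2 difference -0.74, SE 0.05, edgeR adjusted p = 1.5e-16).

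Stress pathways changed in both directions. Of 23 genes of the unfolded protein response 12 rose, 5 fell and 6 did not pass the test. Hspa5, the chaperone BiP, ranged from 521 to 622 CPM on day 1 (median 581) and from 729 to 810.0 CPM on day 3 (median 774) (log2 difference 0.43, SE 0.05, edgeR adjusted p = 6.0e-09), and Dnajc3 went from 66.2 to 114 CPM, whereas Ern1 and Xbp1 fell from 35.2 to 22.6 CPM and 131 to 105 CPM. Of 25 genes of the ATF4 amino acid response 10 rose, 9 fell and 6 did not pass the test. With scaling by library totals 10 rose and 5 fell. Atf4 itself went from 154 to 123 CPM (log2 difference -0.33, SE 0.06, edgeR adjusted p = 2.1e-05), and Ddit3, which encodes CHOP, did not pass the test (18.6 to 18.3 CPM, log2 difference -0.04, SE 0.08, edgeR adjusted p = 0.71). Phgdh, of serine synthesis, and Cth, of cysteine synthesis, rose from 35.6 to 84.8 CPM and from 2.64 to 10.9 CPM. Among heat shock genes 11 of 20 tested rose, 1 fell and 8 did not pass the test, with Cryab, a small chaperone of glia and muscle, up from 7.45 to 50.2 CPM (log2 difference 2.79, SE 0.17, edgeR adjusted p = 3.0e-16). Among targets of NRF2 and metallothioneins 16 of 25 tested rose, 5 fell and 4 did not pass the test. With scaling by library totals 3 fell. Mt3, a metallothionein of the brain, rose from 7.95 to 31.7 CPM, and Slc7a11, the cystine importer, fell from 421 to 336 CPM.

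Energy and translation genes changed little in size. Among oxidative phosphorylation genes 3 of 31 tested rose, 9 fell and 19 did not pass the test (median -0.04), and among ribosomal protein genes 8 of 32 tested rose, 0 fell and 24 did not pass the test (median 0.11). With scaling by library totals 3 oxidative phosphorylation genes rose and 3 fell (median 0.01), and 15 ribosomal protein genes rose, so both counts depended on the scaling. Ribosomal protein genes have many near-identical pseudogenes, so how their reads were assigned is uncertain. Among glycolysis and hypoxia genes 14 of 28 tested rose, 6 fell and 8 did not pass the test, with Egln3, an oxygen sensor, up from 13.5 to 48.7 CPM. Among lysosome and autophagy genes 15 of 30 tested rose, 8 fell and 7 did not pass the test. Grn, which encodes progranulin, and Ctsz, a lysosomal protease, rose from 39.5 to 80.8 CPM and from 7.77 to 18.7 CPM, and Ulk1 and Map1lc3a, of autophagosome formation, fell from 131 to 86.2 CPM and from 98.0 to 57.5 CPM. Among tRNA synthetase genes 4 of 20 tested rose, 10 fell and 6 did not pass the test, and with scaling by library totals 5 rose and 6 fell.

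Genes mutated in familial amyotrophic lateral sclerosis (ALS) did not move as a group. Of 22 tested 6 rose, 8 fell and 8 did not pass the test (median -0.06), shares close to 30.8% in each direction. Sod1, whose G93A mutant form the astrocytes of another medium overexpress, stood at 36.8, 45.6 and 47.9 CPM on day 1 and 36.4, 44.8 and 55.6 CPM on day 3, with overlapping groups and no call (log2 difference 0.03, SE 0.08, edgeR adjusted p = 0.77). Chmp2b, of membrane sorting, and Ccnf, a ubiquitin ligase subunit that cycles with division, rose from 27.8 to 46.8 CPM and from 28.0 to 48.0 CPM (0.77 and 0.75). Kif5a, described above, and Optn, an autophagy receptor, had the largest falls (-0.75 and -0.46).

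The largest differences over all genes with a mean log2 CPM of at least 2, among those called with and without replicate 6 and in 6 of 6 same-numbered pairs, are named next. The 12 largest rises lay between log2 differences of 3.10 and 3.42 and were Casq1, Ephx1, Mgst1, Aldh1l1, Rapgef3, Col4a6, Kcne1l, Prrx1, Itih5, Adamts8, Rhoj and Lox. Casq1, a calcium-binding protein of muscle and other cells, stood at 3.77, 6.06 and 7.45 CPM on day 1 and 61.0, 65.9 and 72.8 CPM on day 3 (log2 difference 3.42, SE 0.13, edgeR adjusted p = 7.8e-22). Ephx1, a detoxifying epoxide hydrolase, went from 9.26 to 94.8 CPM, and Mgst1, a membrane glutathione transferase, from 2.60 to 26.0 CPM. Col4a6, a basement membrane collagen, went from 11.4 to 106 CPM, Rapgef3, an exchange factor that cyclic AMP activates, from 1.59 to 14.2 CPM, and Adamts8, a secreted protease, from 3.94 to 34.6 CPM. The largest falls lay between -2.74 and -1.59 and included Rem2, Isl2, A730069N07Rik, Ldb2, Ngfr, Nkx6-3, Nxph4, En1, Mnx1, Krt8 and Mir670. Rem2, a small GTPase that restrains calcium channels, stood at 16.7, 23.8 and 28.9 CPM on day 1 and 2.55, 3.56 and 4.01 CPM on day 3 (log2 difference -2.74, SE 0.16, edgeR adjusted p = 2.7e-17). Ldb2, a cofactor that binds LIM factors, stood at 12.2, 17.3 and 25.9 CPM on day 1 and 3.47, 3.92 and 4.43 CPM on day 3 (log2 difference -2.17, SE 0.12, edgeR adjusted p = 6.7e-18). For both genes no day 3 library reached the lowest day 1 library. Krt8, an epithelial keratin, was less even, with 34.0 CPM in day 1 replicate 1 and 9.31 CPM in day 3 replicate 1 above the rest of their groups (log2 difference -1.59, SE 0.62, edgeR adjusted p = 0.026), and it was not called with the 12 NTg libraries fitted alone (-1.58).

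Leaving out day 1 replicate 6 moved a limited set of genes. Of the 15204 genes tested with all libraries, 59 had a log2 difference higher by more than 0.5 without it and 0 had one lower by more than 0.5. There were 342 genes called only with it and 332 called only without it. Pdgfra, the receptor of oligodendrocyte precursors and of mesenchyme, read 16.0 CPM in replicate 6 and at most 1.44 CPM in the other day 1 libraries. Its difference changed sign, from -0.65 (edgeR adjusted p = 0.35) to 0.86 (edgeR adjusted p = 0.042).

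Rises called only without that library included genes of glia. Enpp2, the secreted enzyme autotaxin, read 56.8 CPM in it and 5.47 to 6.76 CPM in the other 5 (log2 difference 1.11, SE 0.16, edgeR adjusted p = 3.0e-07 without it). Lims2, H2-D1 and Slc4a10 were likewise called as higher only without it, with log2 differences of 1.21, 0.49 and 0.73. Exons of Lims2 overlap the oligodendrocyte gene Gpr17 on the other strand. Lcp1, of blood cells, and Klf2 were called as lower only with it (-1.15 and -1.38 with it, -0.55 and -0.83 without). Klf2 is expressed in endothelium and is also on the list of pluripotency genes used here. Other genes whose call depended on it had small differences: Rpsa, Homer3, Mtap7, Bcar1 and Glt25d1 upwards and Ndfip1 and Rabgap1 downwards only with it, all under 0.25 in size, and Syvn1, Comtd1, Ndufa7, Tfip11 and Ppp2r1b downwards only without it, between -0.42 and -0.12.

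**Figure D4:**
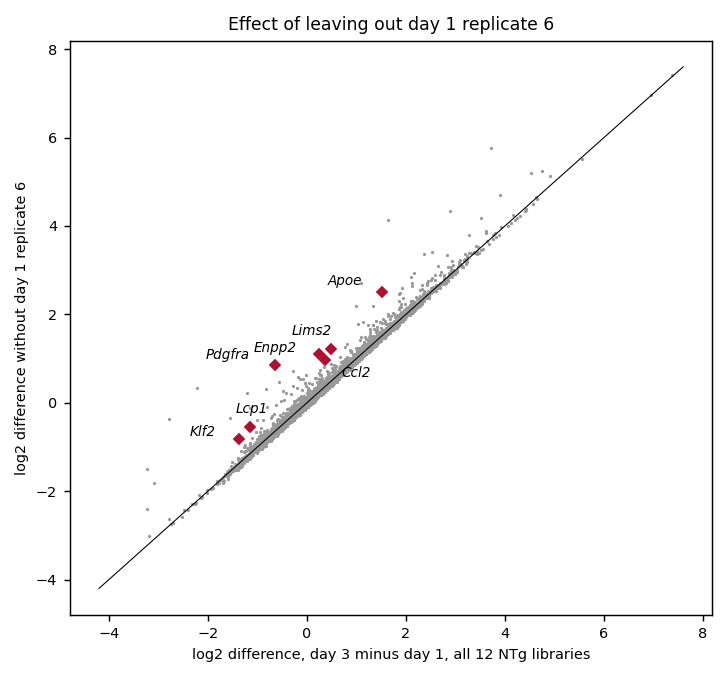
Log2 difference between day 3 and day 1 for each gene tested, with all 12 NTg libraries (horizontal) and without day 1 replicate 6 (vertical); the line marks equal values. Most genes lie on the line, and the marked genes (red diamonds), most of them glial, immune or mesenchymal, lie above it.

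The time course in NTg medium was then set beside those in mSOD1 and wtSOD1 medium, which share no library with it. On the same day, however, same-numbered libraries of NTg and another medium deviated together from their group means (mean r 0.107 to 0.25). The time courses may therefore not be independent. Of the 1288 genes that rose by more than 2-fold in NTg medium, 1205 also passed the test as higher on day 3 in mSOD1 medium and 1227 in wtSOD1 medium, where 28.4% and 31.1% of all genes tested passed as higher. Of the 310 that fell by more than 2-fold, 269 and 285 also fell there, against 28.0% and 30.7% of all genes tested. Rises of more than 2-fold numbered 1113 in mSOD1 medium and 1266 in wtSOD1 medium, and 895 genes were on all 3 lists (69.5% of the NTg list, 80.4% of the mSOD1 list and 70.7% of the wtSOD1 list). Mnx1 changed by -1.55 in mSOD1 and -1.73 in wtSOD1 medium, Chat by -1.13 and -1.54, and Mki67 by 1.02 and 1.23.

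A test of the difference in time course found 35 genes between NTg and mSOD1 medium (0.23% of those tested), 22 with a higher and 13 with a lower change in NTg medium. The count was 99 with DESeq2 and 406 with the experiment number as a replicate block, so it depended strongly on the model. Deviations from the group means correlated between same-numbered libraries of these media with a mean r of 0.107 on day 1 and 0.221 on day 3. For libraries of other numbers the mean r was -0.021 and -0.044. Without NTg day 1 replicate 6 the count was 56. It was 17 without NTg day 1 replicate 4 and 117 without NTg day 3 replicate 1. Usp18, an interferon-induced inhibitor of interferon signalling, changed by 0.11 in NTg medium and by -2.35 in mSOD1 medium (difference 2.46, SE 0.31, edgeR adjusted p = 1.1e-05). Ddx58 changed by 1.82 and 0.79 (edgeR adjusted p of the difference = 1.1e-04), and Irf9 by -0.09 and -0.74 (edgeR adjusted p = 6.3e-04). In the other direction, Osmr, the receptor subunit for oncostatin M, changed by 0.19 in NTg and 1.01 in mSOD1 medium (edgeR adjusted p = 2.7e-06). Rdh10, a retinol dehydrogenase, fell in NTg medium by 0.25 on the log2 scale and changed by 0.43 in mSOD1 medium (edgeR adjusted p = 6.3e-04).

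Against wtSOD1 medium 3 genes differed (0.0197% of those tested), and all 3 belong to sterol handling. The exporters Abcg1 and Abca1 rose more in NTg medium, by 1.25 and 1.26 against 0.38 and 0.5 in wtSOD1 medium (differences 0.87 and 0.76, edgeR adjusted p = 0.006 and 0.015). Idi1, an enzyme of cholesterol synthesis, changed by -0.56 in NTg and -0.17 in wtSOD1 medium (edgeR adjusted p = 0.018). The next lowest p-values, for Sqle and Insig1, also of sterol synthesis and its control, did not pass (edgeR adjusted p = 0.07 and 0.23). Without wtSOD1 day 1 replicate 4 the count was 1. With DESeq2, and with the experiment number as a replicate block, it was 4.

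**Figure D5:**
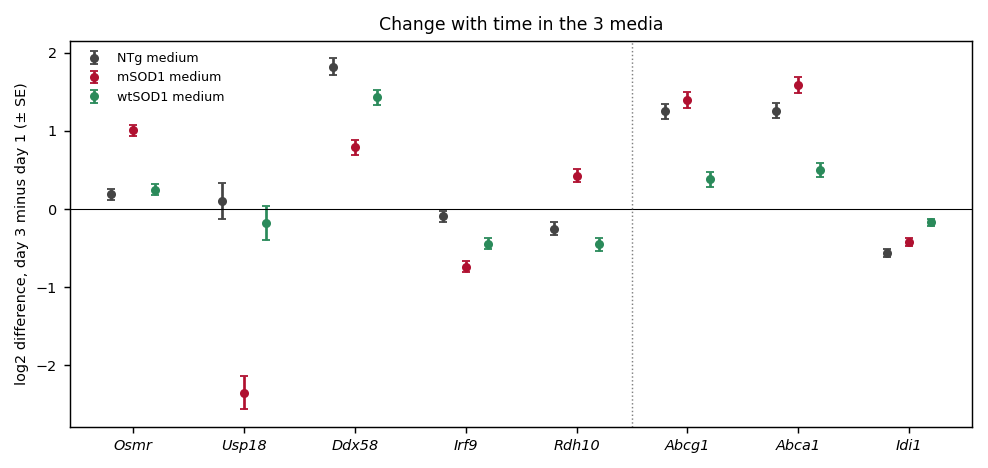
Log2 difference between day 3 and day 1 (points, with SE as bars) in NTg, mSOD1 and wtSOD1 medium for the 8 named genes whose time course differed between NTg and mSOD1 medium (left of the dotted line) or between NTg and wtSOD1 medium (right). Usp18 falls by more than 2 log2 units in mSOD1 medium alone, and Abcg1 and Abca1 are lowest in wtSOD1 medium.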

How the data were processed

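RNA of 36 libraries (6 groups of 6) was deposited as 1 table per library with the authors' read counts per gene and the authors' transformed values, which lie on a log2 scale. Reads were processed with TopHat 1.3.3 and DESeq on build mm9, per the submitters' processing notes. How reads were counted, with which annotation and whether by strand, is not stated, so reads of overlapping genes on opposite strands cannot be told apart. Of 21761 genes listed, 1798 had no read. The 7 rows without a symbol count in the library totals given here but were left out of every fit.

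Counts of all 36 libraries were fitted in edgeR 4.0.16 (R 4.3.3) with 6 group means, TMM scaling, filterByExpr and the robust quasi-likelihood F-test (30 residual degrees of freedom). The contrast was day 3 minus day 1 in NTg medium, with Benjamini-Hochberg adjustment over 15204 genes and a threshold of 0.05. A standard error is the log2 difference divided by the square root of F. CPM use TMM-scaled sizes, and logs for correlations and components use a prior count of 2. Alternatives used DESeq2 1.42.0, limma 3.58.1, other scalings, no filter, the experiment number as a block and libraries left out. The fit was also run on simulated counts with the same spread for every gene and no library set apart. That run checks the code and not the behaviour of these libraries. Depth was 4386946 to 42201777 counts per NTg library, which limits genes of low count.

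Members and lists (61 lists, 1387 of 1390 entries matched to a gene) were chosen with earlier results of these data known. Named genes were the 12 largest differences in each direction called with and without day 1 replicate 6 (mean log2 CPM of at least 2, same direction in 6 of 6 pairs). To these were added up to 4 members per list by size (mean log2 CPM of at least 1) and a fixed set of anchor genes. The 5 genes with the lowest p in each of the 2 comparisons of time courses between media were also named, whether or not they passed. Up to 5 genes per direction whose call depended on replicate 6 were named as well. Thy1, Mecom, Bcl11b, Csf1r and Pecam1 were named after their values were seen. Sequences come from RefSeq promoter windows on GRCm38.p6, whose build differs from that of the counts, and were matched by gene identifier. Some genes that this rule names are not reported here. The time zero control that the series text names was not analysed here.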

Additional observations from a re-analysis of the deposited data

Results flagged for a closer look

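In each group of 6 libraries, the highest or lowest library of a named gene was singled out where its gap to the nearest other library as a share of the group's range exceeded Dixon's 95% critical value for 6 samples. This was met in 53 of 586 sets of 6 values, where chance gives about 1 in 20, and 34 of the 53 fell on day 1 replicate 6. Some of the named genes were chosen because their call depended on that library, so this tally is not independent of it.

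The genes that read high in that library are given with their level in CPM and the nearest other day 1 library in brackets. Markers of glia and carriers of lipid among them were Enpp2 56.8 (nearest 6.76), Mbp 55.9 (nearest 36.3), Apoe 22.2 (nearest 2.14), Pdgfra 16.0 (nearest 1.44), Kcnj10 4.48 (nearest 1.57), Gfap 1.18 (nearest 0.0922), Cspg4 4.95 (nearest 2.12), Lims2 11.3 (nearest 1.603) and Pltp 21.0 (nearest 14.1). Mbp encodes a protein of the myelin sheath and Apoe a lipid carrier. Genes of immune and of vascular cells among them were Ctss 29.0 (nearest 7.56), Lcp1 8.72 (nearest 1.89), Ccl2 23.6 (nearest 4.17), Cxcl10 12.02 (nearest 2.85), Klf2 4.71 (nearest 1.09), Klf4 8.49 (nearest 1.504), Icam1 4.95 (nearest 1.29), Vcam1 52.3 (nearest 35.7), B2m 50.2 (nearest 21.8), H2-D1 31.6 (nearest 14.1), Psmb8 2.83 (nearest 1.11) and Usp18 10.1 (nearest 3.30). Of these, Klf2 and Klf4 are also on the list of pluripotency genes, so they do not mark vascular cells alone. The remaining genes that read high were Slc4a10 9.19 (nearest 3.41), Dcn 7.31 (nearest 4.32), Hhip 10.6 (nearest 6.84), Atf3 28.5 (nearest 19.5), Chmp2b 32.999 (nearest 28.0), Dnaja1 329 (nearest 279) and Idi1 106 (nearest 98.9). Genes that read low in it were Comtd1 1.89 (nearest 5.72), Kif21b 188 (nearest 217), Ndufa7 27.1 (nearest 42.8), Ppp2r1b 90.3 (nearest 102), Syvn1 40.5 (nearest 57.6) and Tfip11 47.4 (nearest 64.2). Some whole lists followed. Ependymal and choroid markers summed to 90.5 CPM in this library, against at most 32.5 CPM in the other 5. Interferon-stimulated genes summed to 230 CPM (at most 152 in the other 5) and MHC class I genes to 239 CPM (at most 159). NF-kB genes and chemokines summed to 359 CPM (at most 245) and complement genes to 178 CPM (at most 128). Other lists did not follow. The summed level of endothelial and mural markers in this library was 109 CPM, inside the 85.5 to 117 CPM of the other 5. Its sums for cholesterol synthesis (2179 CPM) and fatty acid synthesis genes (4061 CPM) were the lowest of day 1, and that of astrocyte markers (1159.7 CPM) lay just above the others' highest (1131 CPM). This library also had the lowest total count of the 12, and the part of its depth or of other cells in these values was not tested.

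Other libraries gave fewer such values. On day 1, replicate 1 read high for Krt8 34.0 (nearest 12.3) and low for Il6ra 1.91 (nearest 2.83), and replicate 5 read high for Gap43 1050.3 (nearest 908) and low for Lox 2.33 (nearest 3.97). On day 3, replicate 1 read high for Grm4 6.81 (nearest 4.49), Klf2 0.811 (nearest 0.309), Krt19 4.29 (nearest 1.67), Krt8 9.31 (nearest 3.05) and Pou5f1 9.78 (nearest 1.93), and low for Lama2 34.7 (nearest 42.8) and Ptbp1 162 (nearest 188). Pou5f1 marks ES cells, and Krt8 and Krt19 are epithelial keratins. Day 3 replicate 2 read high for Btg1 80.0 (nearest 66.7), Egln3 69.2 (nearest 48.3), Foxa2 12.04 (nearest 5.24), Gfap 3.47 (nearest 1.18) and Kcnj10 6.59 (nearest 3.57), and low for Bcar1 112 (nearest 127) and Nhlh2 12.5 (nearest 14.5). Day 3 replicate 5 read low for Lhx3 1.11 (nearest 1.93).

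The change from day 1 to day 3 differed between media, by edgeR's test of the difference itself, for 8 named genes. Against mSOD1 medium the log2 change in NTg medium was higher by 2.46 for Usp18, 1.03 for Ddx58 and 0.65 for Irf9, and the difference was -0.82 for Osmr and -0.69 for Rdh10. Against wtSOD1 medium it was higher by 0.87 for Abcg1 and 0.76 for Abca1, and the difference was -0.39 for Idi1. Usp18 was among the genes that read high in day 1 replicate 6, and without that library its change in NTg medium was 0.43 in place of 0.11.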

How the results depend on the processing

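Counts of genes that rose or fell stayed within 1.5 times their value under the alternatives run (DESeq2, other scalings, no filter on low counts, the 12 NTg libraries alone, the authors' transformed values, and each library left out). With the authors' transformed values in limma, 668 genes rose and 121 fell by more than 2-fold, against 1288 and 310 from counts, and the cause was not tested. Leaving out 1 library at a time gave 4445 to 4713 genes higher, 4433 to 4705 lower, 1234 to 1364 higher by more than 2-fold and 292 to 419 lower by more than 2-fold. Scaling by library totals moved the median of all genes by 0.05 and the share of calls that were higher from 50% to 57.1%. Genes whose time course differed from mSOD1 medium numbered 35, and 99 with DESeq2, 406 with the experiment number as a replicate block, and 17 to 117 with 1 library left out (17 without NTg day 1 replicate 4, 21 without day 3 replicate 2, 56 without day 1 replicate 6 and 117 without day 3 replicate 1). Against wtSOD1 medium the count was 1 to 4 with 1 library left out and 1 without wtSOD1 day 1 replicate 4, which was the lowest. Leave-one-out fits for the NTg libraries other than replicate 6 in these media tests were chosen after seeing the data.

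Same-numbered libraries of day 1 and day 3 did not deviate together (r from -0.031 to 0.103, mean 0.047, against a mean of -0.01 for other numbers), so the numbers were not taken to pair the days. Across media on the same day, the deviations of same-numbered libraries had mean r of 0.107 to 0.25, against -0.021 to -0.05 for other numbers. With the replicate block 4830 genes rose and 4838 fell in NTg medium, 1302 and 326 by more than 2-fold, and 4 differed from wtSOD1 medium. Of 296 named genes tested, without day 1 replicate 6, 271 kept their direction and side of the threshold, 12 lost and 12 gained a call, and Pdgfra changed from -0.65 to 0.86. With the 12 NTg libraries alone 7 named genes lost their call, among them Apoe, Ctss, Krt8 and Lcp1, and with library totals 7, among them Flt1, Itga9, Ndfip1 and Rabgap1. Of 122 counts of list members that rose or fell, 5 moved by over 1.5 times without replicate 6, 11 with library totals, 4 with DESeq2 and 4 with the block. The depth of replicate 6 of day 1, 4386946 counts, limits genes of low level most.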

Other observations

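Gene groups chosen after the values were seen are described here as measurements only. Of 9 floor plate genes tested 8 rose and 1 fell. The floor plate is the ventral midline of the spinal cord that secretes Sonic hedgehog. Shh went from 25.9 to 81.9 CPM, Sulf1, which trims heparan sulfate, from 103 to 383 CPM, and Ntn1, a secreted guidance factor, from 287 to 611 CPM (log2 difference 1.64, SE 0.12, edgeR adjusted p = 1.9e-14 for Shh). Foxa2, the factor that specifies the floor plate, went from 1.65 to 5.47 CPM, with 12.04 CPM in day 3 replicate 2. Of 26 motile cilia genes tested 13 rose, 2 fell and 11 did not pass the test. Foxj1, the main regulator of motile cilia, went from 13.1 to 94.3 CPM (log2 difference 2.84, SE 0.13, edgeR adjusted p = 9.8e-20), and Rfx2, a factor that acts with it, from 5.43 to 21.7 CPM.

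Imprinted genes, expressed from 1 parental allele, went in both directions: 12 of 30 tested rose, 13 fell and 5 did not pass the test. The share over all genes tested was 30.8% in each direction. H19, a long non-coding RNA, went from 176 to 1189 CPM (log2 difference 2.75, SE 0.18, edgeR adjusted p = 3.0e-14), and its neighbour Igf2, a growth factor of mesenchyme, from 9.23 to 28.6 CPM. Mest and Peg3 went from 838 to 1671 CPM and from 687 to 1550.3 CPM. Nnat and Ndn, both abundant in neurons, fell from 1748 to 1015 CPM and from 381 to 231 CPM.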
